A study of Mus musculus with 6 samples.

Results

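The genes of the platelet-derived growth factor (PDGF) family were compared between a line of mouse melanocytes that carries 1 Sox10 allele with a LacZ insertion and a line that is wild type for Sox10. The family comprised 7 genes of the 22180 measured: the receptors Pdgfra and Pdgfrb, the receptor-like gene Pdgfrl and the ligands Pdgfa, Pdgfb, Pdgfc and Pdgfd. They were chosen by gene name. The measured value that the rule adds, the highest mean signal over all 6 arrays among the probe sets of a gene, decided nothing, since each of the 7 had 1 probe set. The family was proposed with results of this comparison known, and the tests of its members are therefore given as a description of each difference against the spread between arrays.

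The Sox10 LacZ/+ line came from Sox10 LacZ/+, Ink4a-Arf null mice of 3 days of age, and the line melan-Ink4a-Arf-1, wild type for Sox10, to which the labels add the name melan-a, from mice homozygous for the Cdkn2a tm1RDp allele. Whether both names mean the same line was not settled by the labels. Both lines are labelled as immortalized melanocytes from mice with disrupted Ink4a-Arf, of a strain repeatedly crossed to C57BL/6J. Both were grown under 10% CO2 with 10% serum, 200 nM of the phorbol ester 12-O-tetradecanoylphorbol 13-acetate and 200 pM of cholera toxin. A mouse age is given for the Sox10 LacZ/+ line only. Each genotype is represented by 1 line with 3 Affymetrix arrays, so genotype and line cannot be told apart, and each p-value reflects nothing but the spread among these arrays, which the labels do not call separate cultures.

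PDGFs are secreted dimers that act through receptor tyrosine kinases. Ligands made of A chains bind the alpha receptor, B chains bind both receptors, C chains act mainly through the alpha receptor and D chains through the beta receptor. The beta receptor is best known for recruiting pericytes and smooth muscle cells to vessels, and the alpha receptor for its part in mesenchyme and oligodendrocyte precursors. SOX10 is a transcription factor of the neural crest, from which melanocytes derive.

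Pdgfrb and 3 ligand genes rose in the Sox10 LacZ/+ line. Pdgfrb was about 16.9-fold higher, Pdgfd 7.17-fold, Pdgfc 5.78-fold and Pdgfb 1.79-fold. The other receptor gene Pdgfra, the receptor-like gene Pdgfrl and the ligand gene Pdgfa did not pass the test. Thus 4 of 7 members were higher and 0 lower at an adjusted p below 0.05, where 7.46% of all genes were higher and 13.4% passed in either direction. At least 2-fold higher were 3 members, against 1.94% of all genes (3.53% in either direction). Without wild-type replicate 2, 4 members were higher and 1, Pdgfa, lower, and 4222 of all genes passed, against 2967 with all arrays.

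The stretches before the starts of Pdgfc and Pdgfd are shown because these ligand genes rose together and both hold a SOX core motif, ACAAAG, in capitals here. RefSeq promoter windows (build GRCm38.p6, from 250 bases before to 50 bases after a start) were given for 4 of the 7 members, and only the bases before the first annotated base of the gene are printed, 250 for Pdgfc (chr3:81036166-81036415, plus strand) and 127 for Pdgfd (chr9:6168236-6168362, plus strand).
Pdgfc: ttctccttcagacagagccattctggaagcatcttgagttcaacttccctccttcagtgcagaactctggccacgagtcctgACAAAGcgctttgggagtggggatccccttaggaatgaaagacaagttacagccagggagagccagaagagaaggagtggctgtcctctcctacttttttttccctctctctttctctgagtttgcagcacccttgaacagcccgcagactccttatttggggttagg
Pdgfd: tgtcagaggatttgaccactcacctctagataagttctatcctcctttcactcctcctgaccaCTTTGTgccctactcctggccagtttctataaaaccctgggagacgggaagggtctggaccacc
In Pdgfc the motif starts 168 bases before the printed end on the plus strand. In Pdgfd it lies on the minus strand, so the capitals read as its reverse complement. ACAAAG or ACAATG, searched on both strands, was found in 3 of the 5 windows of the 4 members, those of Pdgfc and Pdgfd and 1 of Pdgfa. Of 32851 promoter windows of the same length, 28.6% held a match. The other window of Pdgfa and the window of Pdgfra held 0 matches. None of the 5 windows held the AP-1 motif TGACTCA or TGAGTCA (5.2% of all windows), the M-box TCATGTG or TCACGTG (7.4%) or CCAAT (37.4%), and GGGCGG, found in 35.7% of all windows, occurred in those of Pdgfa alone. No window was given for Pdgfrb, Pdgfb and Pdgfrl, so these were not searched. The printed stretches were chosen for both the rise and the motif, so that they share both is no result. A match is a run of letters and not a measured binding site.

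All signals are on a log2 scale. The array medians lay between 5.72 and 5.78, and the median SD of a gene over the 3 arrays was 0.08 in the Sox10 LacZ/+ line and 0.12 in the wild type. Wild-type replicate 2 stood apart, with 261 genes that differed 2-fold or more from its companion arrays, where replicates 1 and 3 had 22 and 54 such genes and no Sox10 LacZ/+ array had more than 2. Sox10 itself had a signal of 9.73 ± 0.05 in the Sox10 LacZ/+ line and 9.91 ± 0.10 in the wild-type line (SD, n = 3 each), a difference of −0.18 that did not pass (adjusted p = 0.213), and Cdkn2a, labelled as disrupted in both lines, differed by −0.09 (adjusted p = 0.61). The sources used here do not say which part of either transcript the probes cover, so these values check neither allele. The lines also differed in sex-linked genes, Xist among them (11.06 against 4.81 in the wild type), so genotype cannot be told apart from sex.

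**Figure D1:**
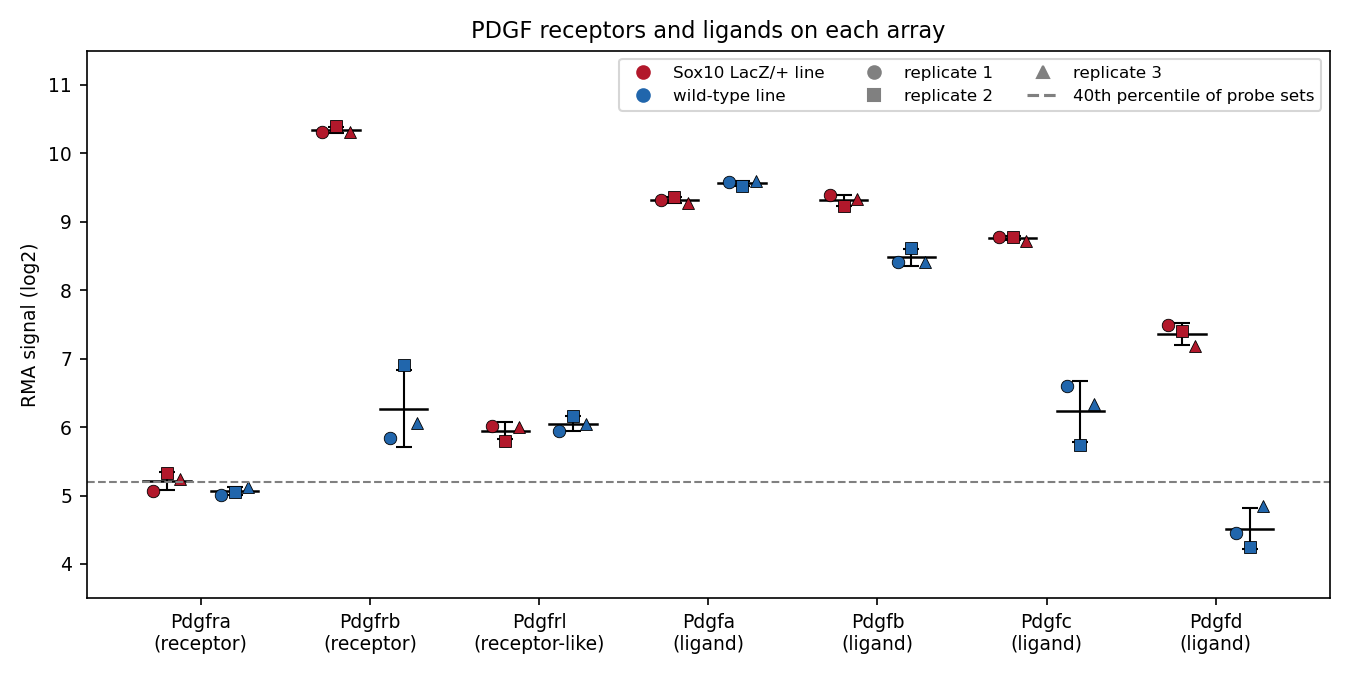
RMA signal (log2) of the 7 PDGF family genes on each array, with the Sox10 LacZ/+ line left (red) and the wild-type line right (blue). Symbols give the replicate number, horizontal bars the mean and error bars the SD of 3 arrays, and the dashed line is the 40th percentile of all probe sets (5.20). Pdgfrb, Pdgfb, Pdgfc and Pdgfd are higher on all 3 Sox10 LacZ/+ arrays than on any wild-type array.

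Pdgfrb (Entrez 18596; chromosome 18, 61045127 to 61085067, GRCm38.p6) encodes the beta receptor. Its signal was 10.32, 10.40 and 10.32 on Sox10 LacZ/+ arrays 1 to 3, against 5.84, 6.91 and 6.06 on wild-type arrays 1 to 3. The Sox10 LacZ/+ arrays lay within 0.1 of each other and the wild-type arrays were all lower, with replicate 2 the highest among them. The mean was 10.35 ± 0.05 in the Sox10 LacZ/+ line and 6.27 ± 0.57 in the wild type (SD, n = 3 each), a log2 difference of 4.08 (95% confidence interval 3.52 to 4.64, adjusted p = 1.83e-05), the 19th largest rise of all genes. Set against wild-type replicate 2 alone, the mean of the Sox10 LacZ/+ arrays was still 3.44 higher.

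Pdgfra (Entrez 18595; chromosome 5, 75151322 to 75198206), the alpha receptor gene, was dim, with a mean below the 40th percentile in the wild type and just above it in the Sox10 LacZ/+ line. It gave 5.06, 5.33 and 5.24 on the Sox10 LacZ/+ arrays and 5.01, 5.06 and 5.12 on the wild-type arrays, and the arrays of the lines overlapped. Its signal lay between percentiles 37.7 and 43.0 of all probe sets on the Sox10 LacZ/+ arrays and between 36.5 and 38.0 on the wild-type arrays. The difference was 0.15 (95% confidence interval −0.06 to 0.35, adjusted p = 0.372), so a change of more than about 1.28-fold upward lies outside the interval, as far as so dim a probe set can measure it.

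Pdgfrl (Entrez 68797; chromosome 8, 40926233 to 40990782) encodes a protein that resembles the ligand-binding part of PDGF receptors and has no kinase. It gave 6.02, 5.80 and 6.01 on the Sox10 LacZ/+ arrays and 5.94, 6.16 and 6.05 on the wild-type arrays. The lines overlapped, and the difference of −0.11 (95% confidence interval −0.32 to 0.11) did not pass (adjusted p = 0.563).

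Among the ligands, Pdgfd (Entrez 71785; chromosome 9, 6168363 to 6534284), whose product activates the beta receptor after cleavage, had the largest difference. Its signal was 7.49, 7.40 and 7.18 on the Sox10 LacZ/+ arrays and 4.45, 4.25 and 4.85 on the wild-type arrays. The lines were far apart, and all 3 wild-type values were dim, at percentiles 22.5 to 32.7 of all probe sets. Pdgfd rose by 2.84 (95% confidence interval 2.48 to 3.20, adjusted p = 1.08e-05). With the wild type so dim, the size of this fold depends on the background of the array.

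Pdgfc (Entrez 54635; chromosome 3, 81036416 to 81214040) encodes the other ligand that is secreted in a latent form. It gave 8.78, 8.78 and 8.73 on the Sox10 LacZ/+ arrays, against 6.60, 5.74 and 6.34 on the wild-type arrays. The Sox10 LacZ/+ arrays were nearly equal, and among the lower wild-type arrays replicate 2 was the lowest. Pdgfc rose by 2.53 (95% confidence interval 2.08 to 2.98, adjusted p = 8.06e-05). Replicate 2 of the wild type thus lay above the mean of wild-type replicates 1 and 3 in Pdgfrb (by 0.96) and below it in Pdgfc (−0.73) and Pdgfd (−0.40).

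Pdgfb (Entrez 18591; chromosome 15, 79995865 to 80024614) encodes the B chain, the main ligand of the beta receptor in vessels. Its signal was 9.39, 9.23 and 9.33 on the Sox10 LacZ/+ arrays and 8.41, 8.62 and 8.41 on the wild-type arrays. The lines did not overlap, with a gap of 0.62 between the lowest Sox10 LacZ/+ and the highest wild-type array. Pdgfb rose by 0.84 (95% confidence interval 0.63 to 1.04, adjusted p = 0.000486), below 2-fold.

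Pdgfa (Entrez 18590; chromosome 5, 138976014 to 139000792), the A chain gene, was the only member with all Sox10 LacZ/+ arrays below all wild-type arrays. It gave 9.33, 9.37 and 9.28 on the Sox10 LacZ/+ arrays and 9.58, 9.52 and 9.59 on the wild-type arrays, a narrow gap. The difference was −0.24 (95% confidence interval −0.40 to −0.08), just outside the threshold at an adjusted p = 0.0586, and it passed without wild-type replicate 2 (adjusted p = 0.0368). In all, 5 of the 7 members had no overlap between the lines, against 31.6% of all genes, and in 4 of these the Sox10 LacZ/+ arrays were the higher, against 17.0% of all genes.

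The profiles nearest to those of the 4 members that passed were found by the Euclidean distance between log2 values centred on the mean of each gene, over the 6 arrays. Unnamed gene models were left out of this search. The genes nearest to Pdgfrb were F2r, which encodes the thrombin receptor PAR1 (distance 0.35, log2 difference 4.12), the membrane-bound metalloprotease gene Mmp16 (distance 0.38, difference 4.0) and Slc24a3, a sodium, potassium and calcium exchanger gene (distance 0.54, difference 3.83). Gpc6, a glypican gene (distance 0.27, difference 2.35), Tnc, the gene of the matrix protein tenascin C (2.46), and Tmem98 (2.32) were nearest to Pdgfc. Nearest to Pdgfd were Prrg1 (distance 0.22, difference 2.75), Map3k7cl (2.89) and B3galt1, a galactosyltransferase gene (2.91), and nearest to Pdgfb the Wnt ligand gene Wnt5a (distance 0.06, difference 0.85), Bmp2k (0.84) and Tpra1 (0.78). These are likenesses over 6 arrays in which the difference between the lines makes up most of each profile. Mmp16, Slc24a3, Prrg1, Map3k7cl and Wnt5a had wild-type means below the 40th percentile, so the sizes of their differences depend on array background.

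The genes whose products cleave, bind or take up PDGF ligands moved either way. Among 12 such genes 3 rose and 4 fell, while 5 did not pass. The share of 7 in 12 stands beside 13.4% of all genes, and the median difference of the list was −0.02, beside 0.001 over all genes. Plau, the gene of urokinase, a protease known to cleave latent PDGF-D, gave 9.94, 9.81 and 9.81 on the Sox10 LacZ/+ arrays and 6.76, 6.25 and 6.30 on the wild-type arrays. It rose by 3.42 (SE 0.14, adjusted p = 1.8e-06), with no overlap between the lines.

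Other proteases of the ligands did not follow Plau. Plat, the gene of tissue plasminogen activator, which cleaves latent PDGF-C, gave 9.83, 9.83 and 9.76 on the Sox10 LacZ/+ arrays and 10.05, 10.20 and 10.11 on the wild-type arrays, and fell by 0.31 (adjusted p = 0.027). St14, the gene of matriptase, which can also cleave PDGF-D, fell by 1.01 (SE 0.14, adjusted p = 0.00229). Furin, the gene of a convertase that trims A and B chains, differed by 0.01 (95% confidence interval −0.19 to 0.21) and did not pass. Plat, St14, Furin and Nrp2 lie outside the 4 genes that the naming rule took from this list and were chosen after their values were seen.

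Lrp1 encodes an endocytic receptor that associates with the beta receptor. Its signal was 9.26, 9.27 and 9.25 in the Sox10 LacZ/+ line, against 6.97, 6.62 and 7.06 in the wild type, a rise of 2.37 (SE 0.12, adjusted p = 5.87e-06). Thbs1, the gene of the matricellular protein thrombospondin 1, rose by 1.38 (SE 0.14). Nrp1 and Nrp2, genes of neuropilin co-receptors, fell by 1.01 (SE 0.09) and 0.67 (SE 0.11).

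**Figure D2:**
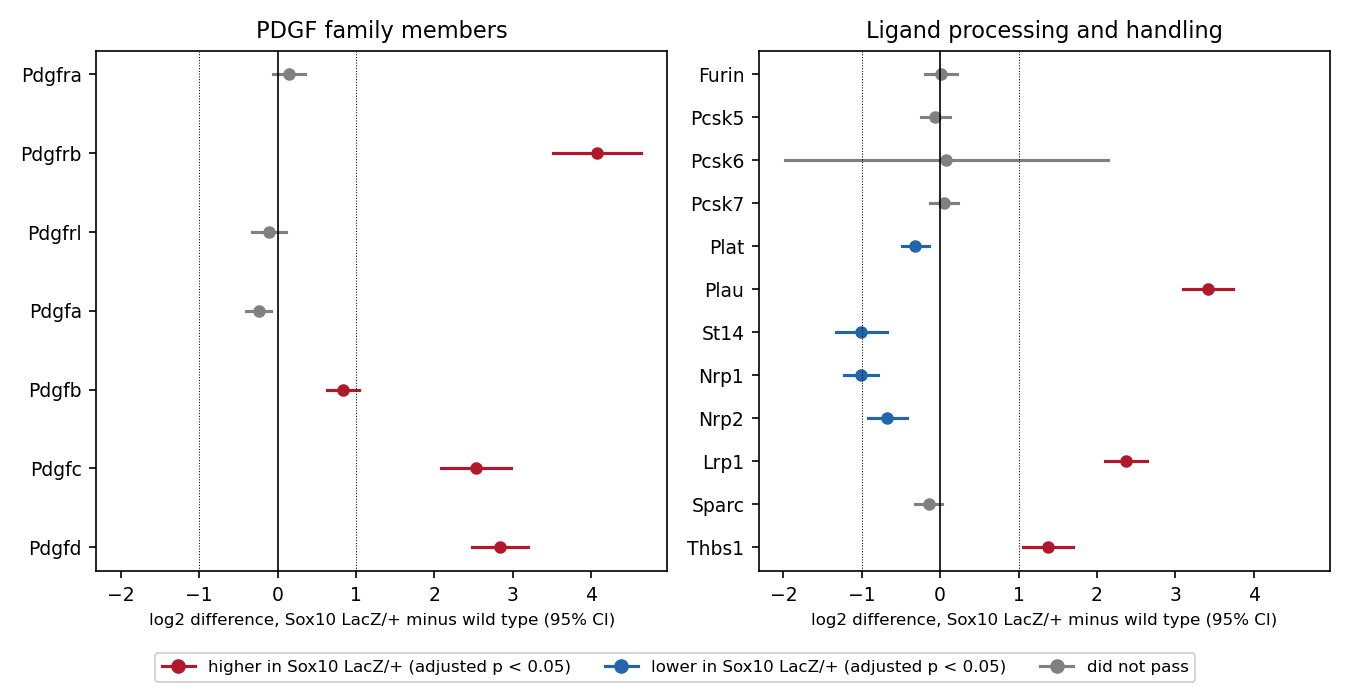
Log2 difference between the Sox10 LacZ/+ and the wild-type line with its 95% confidence interval, for the 7 PDGF family genes (left) and 12 genes of ligand processing and handling (right). Dotted lines mark 2-fold. Pdgfrb, Pdgfd and Pdgfc lie beyond 2-fold on the left, as do Plau, Lrp1 and Thbs1 on the right, whereas St14 and Nrp1 lie at 2-fold in the other direction.

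Of the genes acting directly at the activated receptor, 1 passed at 2-fold or more. This list of 30 genes held 3 that rose, 6 that fell and 21 that did not pass (median −0.07), so 30% passed, beside 13.4% of all genes. Pik3r3, a regulatory subunit gene of PI3 kinase, rose by 1.14 (SE 0.12, adjusted p = 0.00055), whereas Pik3cb, a catalytic subunit gene, fell by 0.89 (SE 0.10). Plcg1, the gene of a phospholipase that docks on the receptor, rose by 0.64 (SE 0.10), and Stat3, a signal-activated transcription factor gene, fell by 0.65 (SE 0.08). The adaptor genes Grb2 (−0.05, adjusted p = 0.714) and Shc1 (0.08, adjusted p = 0.599), chosen here after their values were seen, did not pass.

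Of 9 genes that limit receptor signalling, 8 did not pass and 1, Cav1, fell, so 11.1% passed, close to the 13.4% of all genes. Cav1 encodes caveolin 1, the coat protein of caveolae, and was below the 40th percentile in the Sox10 LacZ/+ line. It gave 4.55, 4.35 and 4.75 on the Sox10 LacZ/+ arrays, against 7.03, 8.60 and 5.80 on the wild-type arrays, which differed widely among themselves. The difference of −2.59 (adjusted p = 0.0236) became −1.86 without wild-type replicate 2 and −3.26 without replicate 3, and the call was gone when wild-type replicate 1 or a Sox10 LacZ/+ array was left out (highest adjusted p = 0.09 among these, and 0.00365 to 0.173 over the 15 alternatives).

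Early response genes, which growth factors including PDGF induce in fibroblasts, were higher in 7 of 21 and lower in 1, and 13 did not pass (median 0.17), beside 7.46% of all genes higher and 5.92% lower. Ccl2, a chemokine gene first found as a PDGF-inducible transcript in mouse fibroblasts, gave 7.25, 7.55 and 7.23 on the Sox10 LacZ/+ arrays and 5.91, 6.08 and 6.46 on the wild-type arrays, a rise of 1.19 (SE 0.15, adjusted p = 0.00139). The nuclear receptor gene Nr4a1 rose by 1.0 (SE 0.07), the MAP kinase phosphatase gene Dusp1 by 0.98 (SE 0.09) and the cyclooxygenase gene Ptgs2 by 0.55 (SE 0.09), the last with a mean below the 40th percentile in both lines, so that the size of its difference depends on array background. Fos differed by 0.33 (adjusted p = 0.0875) and Egr1 by −0.41 (adjusted p = 0.536), 2 familiar members chosen after their values were seen, and neither passed. Over the 4 lists together, 13 of 72 measured genes were higher and 12 lower. Thus 25 passed (34.7%, beside 13.4% of all genes), against 16 without Sox10 LacZ/+ replicate 2 or 3 and 32 without wild-type replicate 2. The genes that passed over all 22180 moved too, from 2967 to 1780, 1768 and 4222 in these settings. Dim genes, with means below the 40th percentile in both lines, made up 2 of the 72, beside 7216 of all genes. With dim genes left out, 25 of 70 pathway genes passed, beside 3189 of 14964 genes.

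The relatives of the family, the vascular endothelial growth factors (VEGFs) and the receptors of the same class with their ligands, included 5 genes that passed at 2-fold or more, beside 3.53% of all genes. These 14 genes included 5 that rose, 1 that fell and 8 that did not pass (median 0.04), so 42.9% passed, beside 13.4% of all genes. With dim genes left out, 7 of 13 passed, beside 3189 of 14964 genes. Pgf, the placental growth factor gene, gave 10.10, 10.02 and 10.04 on the Sox10 LacZ/+ arrays and 7.41, 8.61 and 6.89 on the wild-type arrays, a rise of 2.42 (SE 0.37, adjusted p = 0.00369) that lost its call without variance moderation (adjusted p = 0.0817; from 1.56e-05 over the alternatives). Vegfc, the ligand gene of lymphatic growth, rose by 1.90 (SE 0.10, adjusted p = 1.06e-05). The VEGF receptor genes Flt1 (−0.002), Kdr (0.002) and Flt4 (−0.11), named together after their values were seen, did not pass.

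Kit, the stem cell factor receptor gene and the next measured gene above Pdgfra on chromosome 5, gave 10.87, 10.93 and 10.89 on the Sox10 LacZ/+ arrays and 8.41, 9.32 and 8.10 on the wild-type arrays, a rise of 2.29 (SE 0.27, adjusted p = 0.00092). Its ligand gene Kitl gave 5.64, 6.14 and 5.57 in the Sox10 LacZ/+ line against 8.47, 9.21 and 8.44 in the wild type, and fell by 2.92 (SE 0.23, adjusted p = 9.77e-05). Receptor and ligand genes of the KIT pair thus differed in opposite directions, while Pdgfrb and its ligand genes Pdgfb and Pdgfd were all higher.

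**Figure D3:**
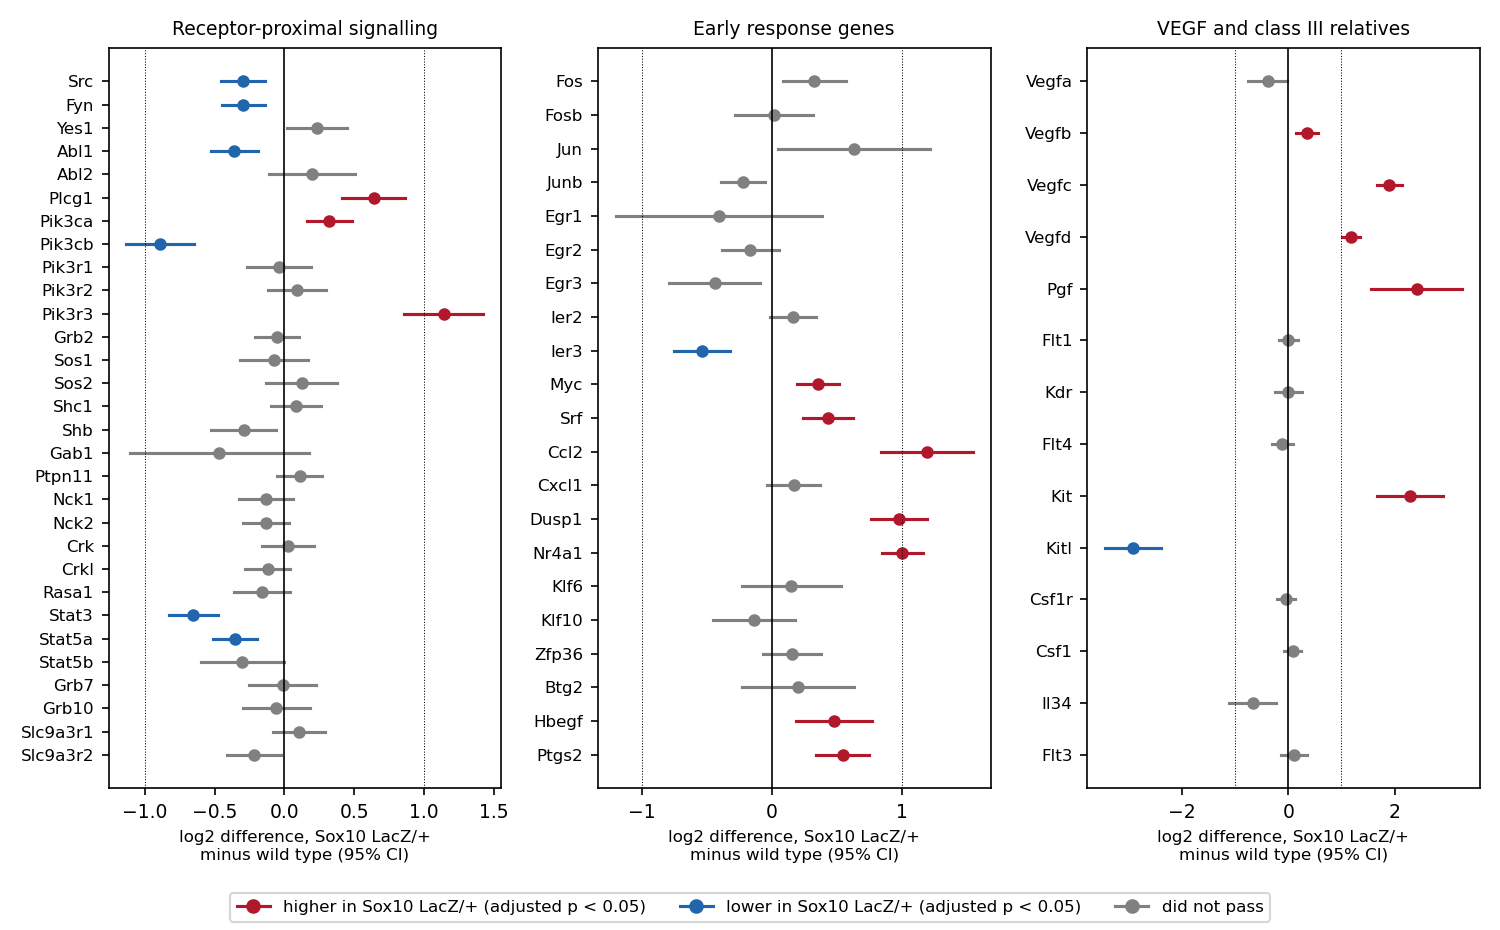
Log2 difference between the Sox10 LacZ/+ and the wild-type line with its 95% confidence interval, for receptor-proximal signalling genes (left), early response genes (middle) and VEGF and class III receptor relatives (right), with a separate scale in each panel. Dotted lines mark 2-fold. Pik3r3, Ccl2 and Nr4a1 exceed it in the first 2 panels, and Pgf, Kit, Vegfc and Vegfd lie above it and Kitl below it in the third.

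Because Pdgfrb marks pericytes and fibroblasts, markers of these cells were measured beside it. Over 46 markers of other cell types, 6 were higher and 0 lower. This share of 13.0% stands beside 7.46% of all genes higher and 13.4% that passed in either direction. At least 2-fold higher were 4 of the 46, beside 1.94% of all genes. In RNA from a whole culture, fewer cells of a type and less RNA per cell cannot be told apart. Of 12 fibroblast markers 2 rose, Dcn (decorin; 10.80 ± 0.04 against 4.88 ± 0.11 in the wild type, n = 3 each) and Col1a2 (a rise of 1.24, SE 0.09), and 10 did not pass, with Lum, Fap and Twist2 under the 40th percentile on all arrays. Dcn lay below the 40th percentile in the wild type. The summed linear signal of the list was 3204 to 3257 on the Sox10 LacZ/+ arrays and 837 to 1108 on the wild-type arrays, and without Dcn 1416 to 1501 in the Sox10 LacZ/+ line and 810 to 1078 in the wild type. Col1a1 differed by −0.20 (adjusted p = 0.14) and Col3a1 by 0.10 (adjusted p = 0.463), named after their values were seen.

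Pericyte and smooth muscle markers rose in 3 of 12 cases, and 9 did not pass. Acta2, the smooth muscle actin gene, had 12.45 ± 0.04 in the Sox10 LacZ/+ line and 7.11 ± 0.22 in the wild type, Tagln, an actin-binding protein gene, rose by 0.94 (SE 0.11) and Cnn1, the calponin gene, by 0.44 (SE 0.08). Cnn1 lost its call without Sox10 LacZ/+ replicate 1 (adjusted p = 0.0528; 0.00449 to 0.0528 over all alternatives). The defining pericyte gene Rgs5, named after its value was seen, was below the 40th percentile on all arrays (difference 0.01). The summed linear signal of the list was 11005 to 11639 on the Sox10 LacZ/+ arrays and 4099 to 5227 on the wild-type arrays. Most of this gap was Acta2: without it the sums were 5427 to 5863 on the Sox10 LacZ/+ arrays and 3978 to 5070 on the wild-type arrays. The part of such cells in the Pdgfrb difference was not tested.

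Of 8 endothelial markers 0 passed by limma; the 2 brightest, Pecam1 and Cdh5, differed by 0.14 (adjusted p = 0.285) and 0.23 (adjusted p = 0.346), and Kdr, Tek, Emcn and Esam were below the 40th percentile on all arrays. Of 8 oligodendrocyte precursor markers 0 passed by limma, with Neu4 at −0.01 and Cspg4 at −0.04, differences that changed sign under some settings. Of 7 leukocyte markers 1, the lysosomal membrane protein gene Cd68, rose by 1.32 (SE 0.11), and Ptprc, Cd14 and Adgre1 were below the 40th percentile on all arrays. None of the 11 melanocyte markers lay below the 40th percentile on all arrays, though Trpm1 lay at percentiles 36.2 to 51.4 in the wild type. The summed linear signal of the list was 33701 to 34304 on the Sox10 LacZ/+ arrays and 35713 to 41024 on the wild-type arrays. Dct had the largest linear difference of the list. Without it the sums overlapped, at 28471 to 29275 in the Sox10 LacZ/+ line and 27474 to 32510 in the wild type. Of these 11, 2 rose and 4 fell, so 54.5% passed, beside 13.4% of all genes. Those that fell included Tyr, the tyrosinase gene (−2.10), Oca2 (−0.88) and Gpr143 (−1.0), and Trpm1 rose by 1.14. The calls of Gpr143 and Trpm1 were lost without variance moderation (adjusted p = 0.109 and 0.0907; from 0.00133 and 0.000346 over the alternatives).

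**Figure D4:**
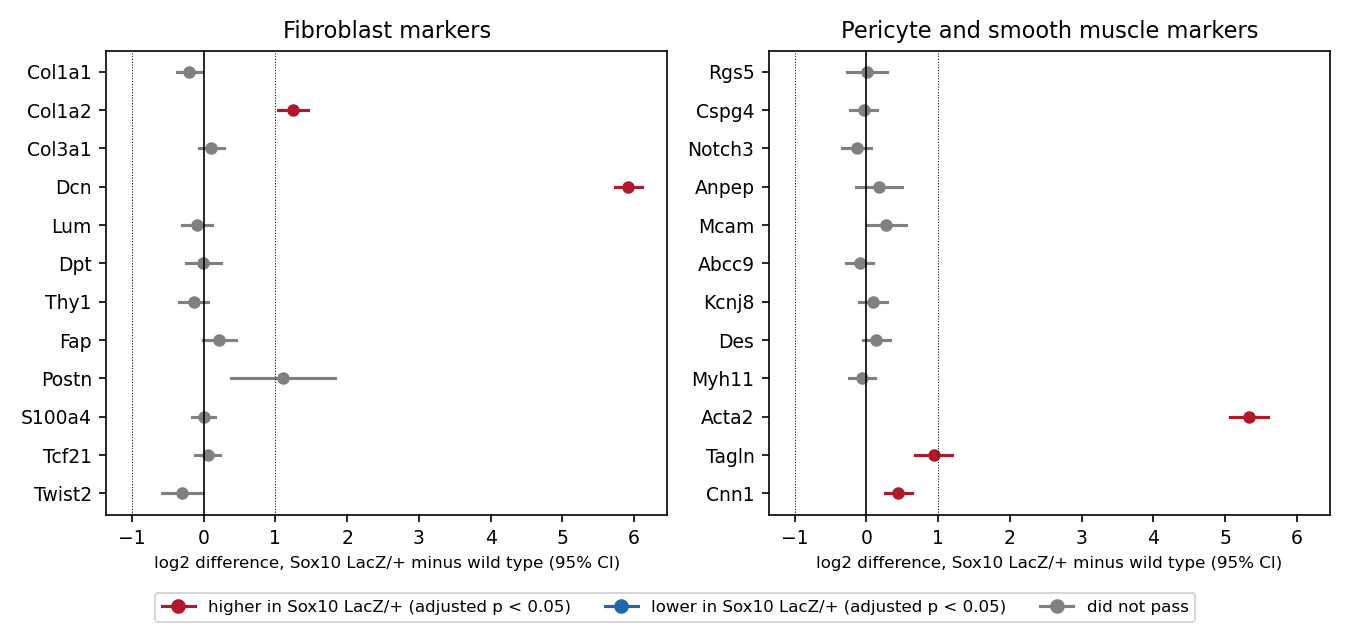
Log2 difference between the Sox10 LacZ/+ and the wild-type line with its 95% confidence interval, for 12 fibroblast markers (left) and 12 pericyte and smooth muscle markers (right). Dotted lines mark 2-fold. Dcn (5.92) and Acta2 (5.34) lie far to the right, Col1a2, Tagln and Cnn1 are higher by less, and the other 19 genes did not pass.

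Pdgfb lies 841 kb from Sox10 on chromosome 15, measured between the lower coordinates of the genes. Of the 24 measured genes between them, 2 were higher and 2 lower, and 20 did not pass, a share of 16.7% against 13.4% of all genes. Apobec3, an antiviral cytidine deaminase gene, gave 7.20, 7.52 and 6.54 on the Sox10 LacZ/+ arrays and 3.94, 4.66 and 4.35 on the wild-type arrays, a rise of 2.77 (SE 0.26, adjusted p = 0.000268) whose size depends on array background, since the wild-type values lay at percentiles 17.2 to 29.9. Csnk1e, a casein kinase gene, differed by 0.31 (adjusted p = 0.0332), Pick1, a PDZ domain protein gene, by −0.65 (adjusted p = 0.0436) and the gene model Gm10863, outside the naming rule, by −0.95 (adjusted p = 0.0024). Pick1 and Csnk1e lost their calls under several alternatives (adjusted p up to 0.2 and 0.124; from 0.000207 and 0.0096), and 2 of the 24 passed with any single array but wild-type replicate 2 left out.

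Near Sox10 the share of genes that passed was close to the 13.4% of all genes. Of 94 genes within 2 Mb of Sox10, Sox10 and Pdgfb included, 8 were higher and 3 lower (11.7%), with C1qtnf6, named after its value was seen, higher by 1.34 (adjusted p = 0.00032), as against 115 of 839 genes on chromosome 15 (13.7%). Among the 20 nearest measured neighbours of Pdgfb, 4 were higher and 0 lower (20%, beside 7.46% of all genes higher), Rpl3, a ribosomal protein gene, among them (0.49, adjusted p = 0.0439), a call that was lost under several alternatives (adjusted p 0.00146 to 0.176). The others were Apobec3, Syngr1 and Snord83b (0.46, adjusted p = 0.0483). Snord83b starts within Rpl3, so these genes are not separate positions. The neighbours of Pdgfb had a median difference of 0.17, beside 0.001 over all genes.

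**Figure D5:**
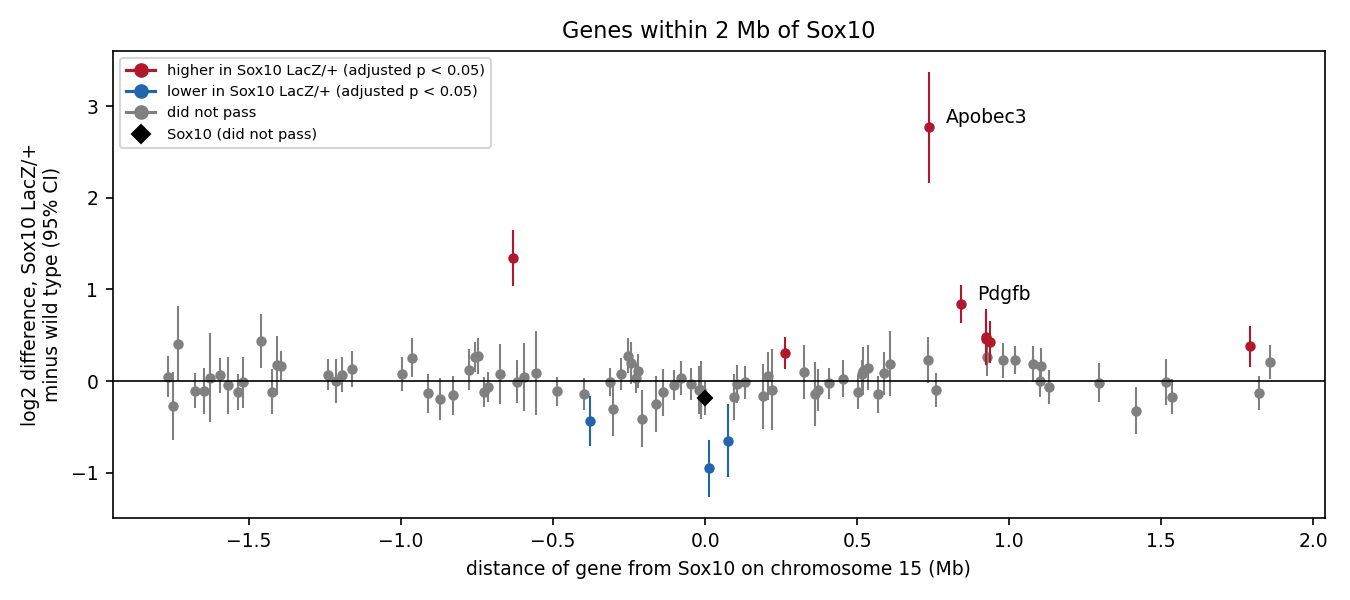
Log2 difference between the Sox10 LacZ/+ and the wild-type line with its 95% confidence interval, for 94 genes by their distance from Sox10 in Mb. Red genes were higher, blue genes lower and grey genes did not pass, and the black diamond is Sox10. Apobec3 (2.77), C1qtnf6 (1.34, on the other side of Sox10) and Pdgfb (0.84) are the highest of the genes that passed, and 83 of the 94 did not pass.

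The receptors lie beside related receptor genes. Csf1r, which encodes the macrophage colony-stimulating factor receptor, starts 60.4 kb from Pdgfrb and gave 5.41, 5.34 and 5.27 on the Sox10 LacZ/+ arrays and 5.34, 5.43 and 5.38 on the wild-type arrays (difference −0.04, 95% confidence interval −0.21 to 0.13). Around Pdgfrb, 2 of 20 neighbours were higher and 1 lower, among them Slc26a2, a sulfate transporter gene (−1.47, SE 0.11), and Bvht (1.12, SE 0.10). Around Pdgfra, 1 was higher, Kit, which starts 424 kb away, and 1 lower, Scfd2 (−0.61, SE 0.11), a call lost under 1 alternative (adjusted p 0.00179 to 0.0844). Around all 7 members, 21 of 140 neighbours passed, or 15%, close to the 13.4% of all genes. Without 1 of the Sox10 LacZ/+ arrays 11 to 13 passed, where 1768 to 1817 of all genes did, against 2967 with all arrays. Without wild-type replicate 2, 30 neighbours passed, where 4222 of all genes did.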

How the data were processed

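RNA of 6 samples was labelled with biotin and hybridised to 1-colour Affymetrix arrays. The deposited log2 values come from RMA (background correction, normalization across arrays, 1 summary value a probe set), per the submitters' processing notes, which name Partek too. The sources used here give no version, setting or genome build. The values were used without further scaling.

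Of 41345 probe sets, 23521 carried 1 gene symbol, 1814 several and 16010 none. Symbols and positions came from RefSeq (GRCm38.p6), and the brightest probe set of a gene over all arrays was kept, giving 22180 genes. Dim genes were kept, so the shares of all genes include 7216 genes with means below the 40th percentile in both lines. Testing used limma 3.58.1 under R 4.3.3 (functions lmFit and eBayes, 2-sided, 4 residual and 7.87 total degrees of freedom). To pass, a gene needed an adjusted p (Benjamini-Hochberg, over the 22180 genes) below 0.05. Differences are Sox10 LacZ/+ minus wild type on the log2 scale, and the small number of arrays limits their precision. The fit was tested on simulated data.

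The members, the gene lists and the tests were chosen with earlier results of these data known. Some genes of the lists are not analysed here. Named were the 7 members, Sox10 and Cdkn2a, up to 4 passing genes of each list by size (or the 2 brightest), passing genes between Sox10 and Pdgfb, up to 2 passing neighbours of each member among 10 on each side, and 3 nearest profiles. Lists were described by counts and medians, with no set test. Replicates are numbered 1 to 3 in each line by the labels. Arrays with the same number did not deviate together (r of 0.007, 0.016 and −0.004 across genes), so no replicate block was used. An exact permutation test of a single value cannot go below p = 0.1 with 3 against 3 arrays and was not used. Alternatives changed the scaling (median centring or quantile normalization), the genes tested (without dim ones), the summary per gene (mean over probe sets), the variance model (trend, robust, unmoderated, or weighted arrays) or the design (a replicate block, or 1 array fewer), or added a 2-fold threshold.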

Additional observations from a re-analysis of the deposited data

How the results depend on the processing

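Pdgfrb, Pdgfb, Pdgfc and Pdgfd passed under all 15 alternatives to the fit, with differences of 3.86 to 4.40, 0.80 to 0.91, 2.29 to 2.72 and 2.71 to 3.01. Pdgfra (0.09 to 0.22) and Pdgfrl (−0.16 to −0.03) passed under none. Pdgfa passed with dim genes left out (−0.24, adjusted p = 0.0339), with trend (−0.24, 0.037), without variance moderation (−0.24, 0.0301), with array weights (−0.26, 0.0304) and without wild-type replicate 2; with single arrays left out its difference ran from −0.26 to −0.22. With single arrays left out, 4 to 5 members passed, 16 to 32 pathway genes, 5 to 7 relatives, 5 to 7 markers of other cells, 11 to 30 neighbours, 2 to 4 genes between Sox10 and Pdgfb, and 1768 to 4222 of all genes. Without variance moderation 1717 of all genes, 10 neighbours and 1 gene between Sox10 and Pdgfb passed. With a 2-fold threshold added, 782 of all genes, 9 pathway genes, 12 neighbours and 1 gene between Sox10 and Pdgfb passed. The replicate block gave 4 members and 2512 of all genes, and pairing by number changed no call of a member. Neu4 turned positive with median centring (0.017) and quantile normalization (0.0099), and ran from −0.087 to 0.057 with single arrays left out, as Cspg4 did from −0.074 to 0.013 (both positive without wild-type replicate 1 or Sox10 LacZ/+ replicate 2). The cause of these shifts was not tested. No detection calls were used, so the fold of Pdgfd, dim in the wild type, is bounded by array background.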

Other observations

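The neighbours of the other ligand genes included larger differences than the ligands themselves. Glrb, which encodes the beta subunit of the glycine receptor and lies near Pdgfc on chromosome 3, gave 8.65, 8.77 and 8.73 on the Sox10 LacZ/+ arrays and 11.87, 11.84 and 11.82 on the wild-type arrays, a fall of 3.12 (SE 0.07, adjusted p = 1.53e-07). Ctso, a cathepsin gene near Pdgfc, was higher by 1.12 (adjusted p = 0.0444), a call lost under 5 of 15 alternatives. Near Pdgfd on chromosome 9, the inflammatory caspase gene Casp1 gave 6.19, 6.12 and 6.36 on the Sox10 LacZ/+ arrays and 10.09, 8.86 and 10.29 on the wild-type arrays, a fall of 3.52 (SE 0.33, adjusted p = 0.000247). Its relative Casp4 gave 5.76, 5.77 and 5.97 on the Sox10 LacZ/+ arrays and 9.48, 8.12 and 9.45 on the wild-type arrays, a fall of 3.18 (SE 0.33, adjusted p = 0.000451). In both caspase genes wild-type replicate 2 was the low array of its line.

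Around Pdgfrl, Slc7a2, a transporter gene for cationic amino acids, rose by 1.11 (SE 0.13), and Asah1, the acid ceramidase gene, differed by −0.34 (adjusted p = 0.0381), a call lost under 8 of 15 alternatives. Around Pdgfa, Lamtor4 differed by −0.49 (adjusted p = 0.0466) and Gpr146 by 0.41 (adjusted p = 0.0268), and these calls were lost under 8 and 6 of 15 alternatives. Vegfd and Vegfb, ligand genes of the related VEGF family that lie outside the naming rule, rose by 1.19 (SE 0.07) and 0.34 (adjusted p = 0.0409), with Vegfd below the 40th percentile in the wild type.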
